A study of Mus musculus with 4 samples.

Results

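CHD8 peaks were examined at 4 loci of the Wnt/beta-catenin pathway: Ctnnb1, Axin2, Myc and Ccnd1. Every peak that overlapped a fixed mm9 window around each gene was taken, whatever its strength, which gave 13 of the 22706 peaks of replicate 1 and 15 of the 31002 peaks of replicate 2. CHD8 is an ATP-dependent chromatin remodeller, mapped here by chromatin immunoprecipitation and sequencing (ChIP-seq) in embryonic stem cells of the mouse, cultured in 2i medium. Both copies of the endogenous gene carried a C-terminal 3xFLAG tag, and the ChIP antibody was anti-FLAG M2. The samples were 2 ChIPs and 2 inputs of these cells, all in 1 condition, and each ChIP came with its own peak list. Cells without the tag were not among the samples, so signal that the antibody gives on its own cannot be told apart from CHD8. The labels do not say whether the replicates came from separate cultures.

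In the canonical Wnt pathway a destruction complex built on Axin proteins marks beta-catenin for degradation, and Wnt signals stop it. Beta-catenin then enters the nucleus and activates targets together with TCF/LEF factors, which bind DNA. The 2i medium holds an inhibitor of GSK3, a kinase of the destruction complex, and so stabilises beta-catenin. CHD8 has been reported to bind beta-catenin and to restrain its target genes. The loci cover several roles. Ctnnb1 encodes beta-catenin itself, Axin2 is a target that feeds back on the pathway as a scaffold of the destruction complex, and Myc and Ccnd1 are targets that drive growth and the cell cycle.

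RefSeq promoter sequences, of build GRCm38.p6, were matched by symbol for 2 of the 4 genes, Ctnnb1 and Axin2, and are shown for the base composition of these loci. The promoter table holds no entry for Myc or Ccnd1. Ctnnb1 has 2 entries with different starts, of which the first by position is printed. Each sequence below is the 250 bases upstream of an annotated start, on the plus strand, at chr9:120933150-120933399 for Ctnnb1 and chr11:108920099-108920348 for Axin2. These positions are of another build than the peaks and cannot be compared with the mm9 positions, so whether a peak covers them was not determined. Capitals mark CG dinucleotides.
Ctnnb1: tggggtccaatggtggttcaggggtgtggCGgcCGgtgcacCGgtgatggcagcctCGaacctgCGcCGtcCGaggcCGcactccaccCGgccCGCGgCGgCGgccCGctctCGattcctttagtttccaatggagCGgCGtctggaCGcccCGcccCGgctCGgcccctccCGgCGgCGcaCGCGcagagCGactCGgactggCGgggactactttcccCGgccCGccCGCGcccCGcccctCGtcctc
Axin2: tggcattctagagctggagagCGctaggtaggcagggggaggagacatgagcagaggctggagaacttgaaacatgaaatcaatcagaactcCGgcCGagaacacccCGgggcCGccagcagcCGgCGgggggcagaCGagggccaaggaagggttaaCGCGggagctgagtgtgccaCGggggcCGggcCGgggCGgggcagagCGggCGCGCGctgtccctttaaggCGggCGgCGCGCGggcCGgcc
The Ctnnb1 sequence held 35 CG dinucleotides and the Axin2 sequence 24, against a median of 6 over the 32851 promoters of the table. Of all promoters, 2.97% held at least as many as Ctnnb1 (0.71% as many as the 43 of its second entry) and 11.98% at least as many as Axin2. The TCF/LEF core, searched as CTTTGA and CTTTGT on both strands, had no match in these stretches. It occurred in 27.6% of all stretches of this length. That share is not matched for base composition. G and C made up 74.8% of the printed Ctnnb1 stretch and 69.2% of the Axin2 stretch, against a median of 52.4%. Sequence outside these stretches was not searched, so sites elsewhere at the loci are not excluded.

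All 4 loci held CHD8 peaks in both replicates, and each had at least 1 site found in both. Overlapping peaks of the 2 lists formed 6 shared regions, of which Ctnnb1 and Ccnd1 had 2 each and Axin2 and Myc 1 each. Sharing was counted from an overlap of 1 bp. The windows were 60 kb long for Ctnnb1, 55 kb for Axin2, 40 kb for Myc and 45 kb for Ccnd1. When the genome was tiled with windows of these lengths, a shared region was found in 23.6% of the 60-kb, 22.3% of the 55-kb, 18.1% of the 40-kb and 19.6% of the 45-kb windows. These are windows of the whole genome and not of genes, so the shares do not say what a window around another gene would hold.

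**Figure D1:**
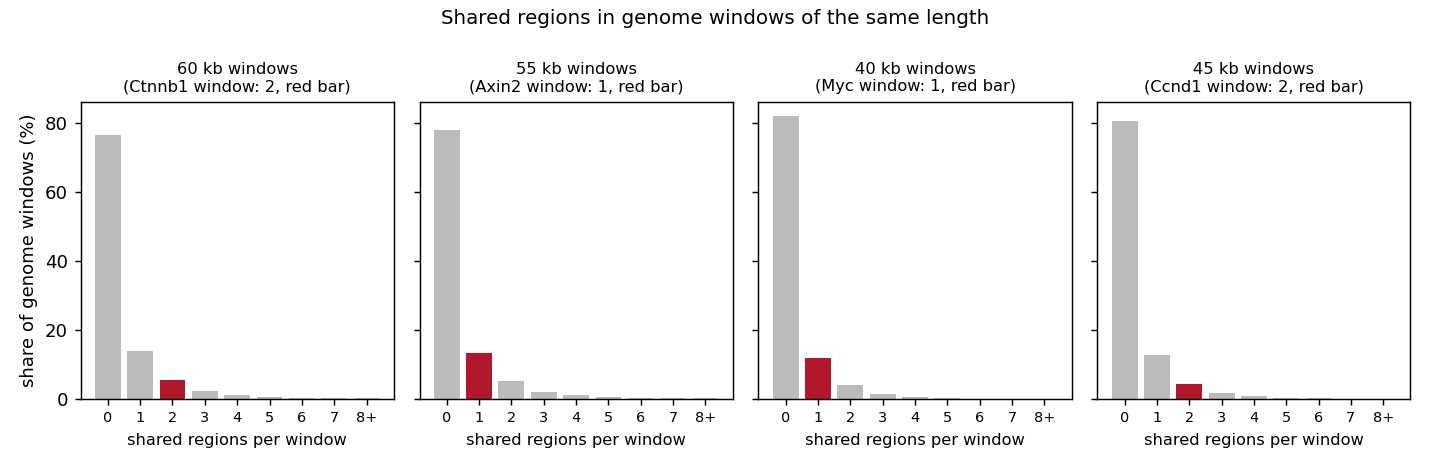
Share of genome windows (y axis, percent) by the number of shared CHD8 regions they hold (x axis), for windows as long as each locus window; the red bar is the number at the locus. Most windows hold none, and the Ctnnb1 and Ccnd1 windows with 2 regions are in the upper 9.75% and 7.08% of windows of their length.

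The values given for each peak are the authors' fold enrichment, a linear ratio of the signal at the summit to the caller's background, and its q-value as −log10. They rank peaks within a list and are not on 1 scale across the lists. The number of reads over a summit was solved from the fold and the p-value, and has an exact Poisson interval for counting error alone, as do the folds computed from it. The lists had a median of 21 reads over a summit in replicate 1 and 24 in replicate 2. ChIP depth was taken as 3.44 and 3.56 reads genome-wide, solved from the lists and not counted. A span of 200 bp was assumed for it in both replicates.

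The strongest CHD8 site of the 4 loci was in the window of Ctnnb1, the gene of beta-catenin. It was a region of 2379 bp on chromosome 9 at 120841952 to 120844330. Its fold enrichment was 14.0 in replicate 1 (95% interval 10.7 to 17.9) and 12.8 in replicate 2 (9.86 to 16.3). The summits rested on 61 reads in replicate 1 (95% interval 46.7 to 78.4) and 62 in replicate 2 (47.5 to 79.5). They lay 3 bp apart, and 3.82% of all 17867 shared regions had summits as close or closer. The peak stood at rank 796 of its list in replicate 1, the top 3.51%, and at rank 1366 in replicate 2, the top 4.41%. The control background was at the genome-wide value under both summits. That is the lowest value it can take here, so control coverage there may be lower.

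The extent of this Ctnnb1 site was drawn in different pieces by the 2 lists. Replicate 1 had 3 peaks there, of 1086, 407 and 200 bp, with folds of 14.0, 5.18 and 3.69. Replicate 2 had a single peak of 2096 bp, which spanned the first 2 of these and the start of the third, and a second of 201 bp with a fold of 3.71. Only 0.35% of all shared regions, 62 of them, joined at least 3 peaks of replicate 1 and 2 of replicate 2. The lesser peaks lay 0.89 to 1.74 kb from the main summit of replicate 1, all on the side of higher coordinates.

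A weak second Ctnnb1 site lay 18.2 kb from the main summit, at lower coordinates. It spanned 345 bp at 120824165 to 120824509 and had folds of 4.33 in replicate 1 (2.76 to 6.52) and 4.91 in replicate 2 (3.22 to 7.23). Its summits had 21 reads in replicate 1 and 23 in replicate 2, close to the list medians, and 95.2% of all shared regions were at least as wide. Replicate 2 alone had a peak at 120828400 to 120828618 with a fold of 4.51 and 21 reads, 3940 bp from the nearest replicate 1 peak. The stretch above the main site, 35.7 kb up to the window's end, held no peak in either list.

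Axin2 had 1 CHD8 site in both replicates, which ranked in the upper part of both lists. It spanned 1424 bp on chromosome 11 at 108781479 to 108782902, with folds of 8.11 in replicate 1 (5.72 to 11.2) and 7.94 in replicate 2 (5.70 to 10.8). The summits had 35 reads in replicate 1 (24.4 to 48.7) and 38 in replicate 2 (26.9 to 52.2) and lay 91 bp apart. The peak was in the top 14.1% of replicate 1 and the top 15.8% of replicate 2. It was the only Axin2 peak in replicate 1.

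Replicate 2 had 2 more peaks in the Axin2 window, both weak. One, at 108783031 to 108783560, had a fold of 4.31 and 20 reads and began 128 bp from the end of the replicate 1 peak. The other, at 108771765 to 108772144, had a fold of 3.91 and 18 reads, lay 10.1 kb from the main summit and 9438 bp from the nearest replicate 1 peak. Above the last of these peaks, the 41.4 kb up to the window's end, 75.3% of the window, held no peak in either list.

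Myc, which encodes a transcription factor of growth genes, had the weakest best site of the 4 loci and the most peaks found in 1 list alone. Its shared region of 973 bp on chromosome 15 at 61816235 to 61817207 had folds of 5.12 in replicate 1 (3.36 to 7.52) and 6.12 in replicate 2 (4.19 to 8.67). The summits had 24 reads in replicate 1 (15.4 to 35.7) and 29 in replicate 2 (19.4 to 41.6). These are values near the medians of all shared regions, 23 and 31 reads, and the peak was in the top 37.1% of replicate 1 and 30.0% of replicate 2. The summits lay 265 bp apart, farther than at most shared regions, whose median was 95 bp.

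Around the shared Myc site the lists placed different weak peaks. Replicate 2 had 4 further peaks, at 61810198 to 61810964, 61814987 to 61815662, 61815902 to 61816165 and 61818159 to 61818410, with folds of 3.91 to 4.91 and 18 to 23 reads. Replicate 1 had 1 further peak, at 61818659 to 61818872, with a fold of 3.38 and 14 reads. That peak and the last of replicate 2 were 248 bp apart and did not overlap. Of the 7 Myc peaks in both lists together, 6 had their summit within 2.39 kb of the replicate 1 main summit, and the other was 5.93 kb away. The 5 replicate 2 peaks were more than most windows held, since 1.81% of the 40-kb windows had as many, while 8.25% held at least the 2 of replicate 1. Above the last peak, 21.1 kb of the window was free of peaks in both lists.

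**Figure D2:**
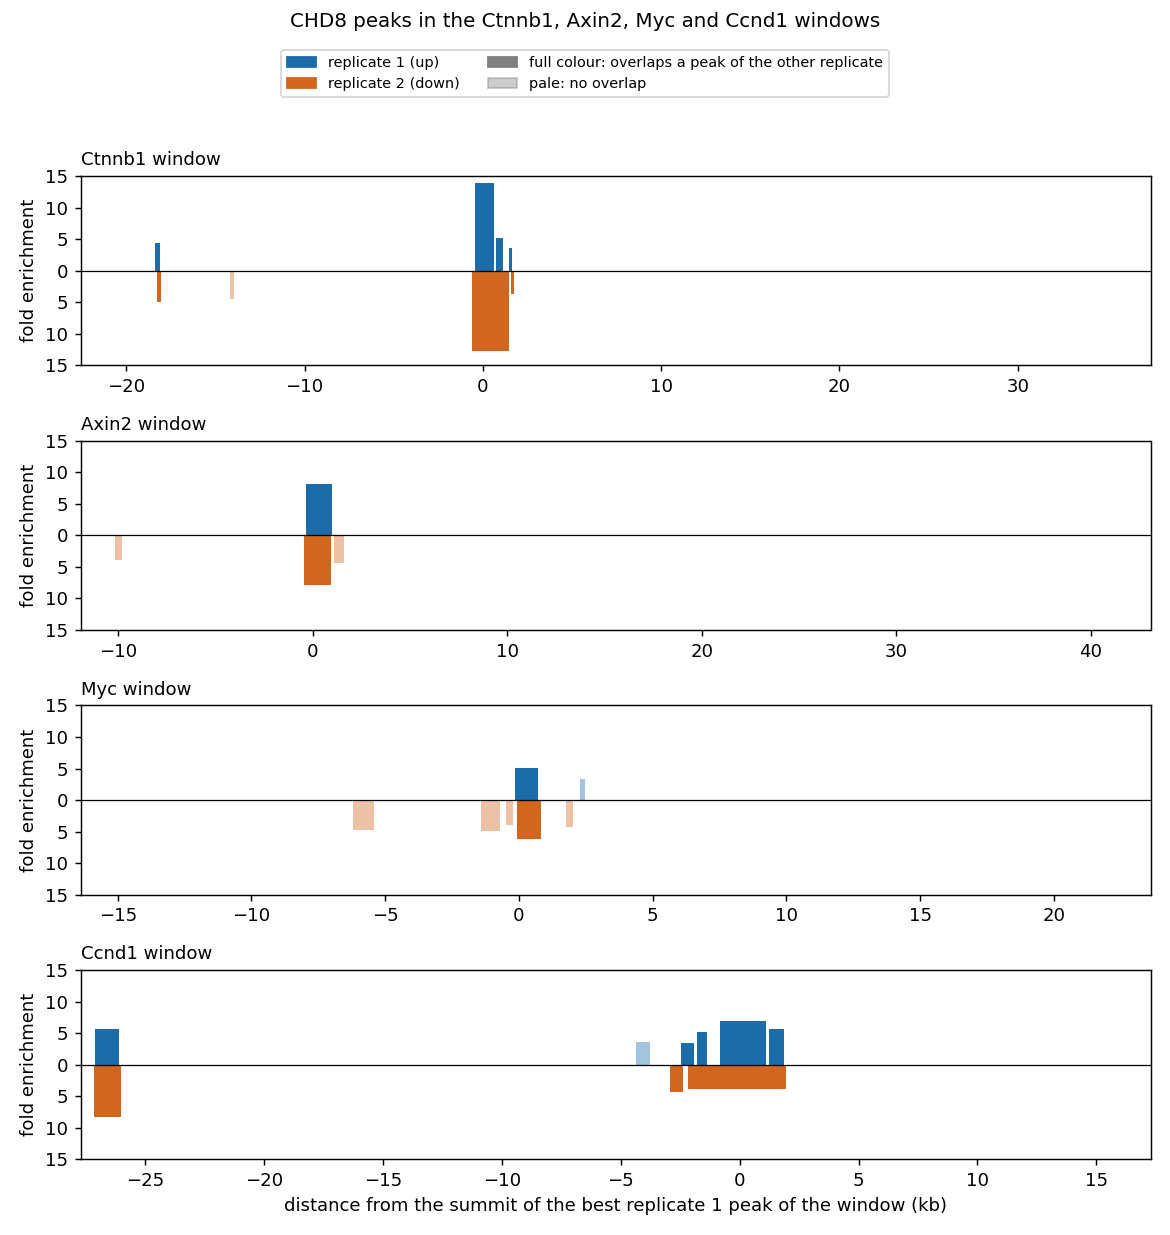
Peaks in each window, drawn at their true width, by distance from the summit of the best replicate 1 peak (x axis, kb); height is the authors' fold enrichment (y axis, linear), with replicate 1 upwards and replicate 2 downwards. Ctnnb1 and Axin2 show 1 dominant site in both lists, Myc a group of weak peaks of which 1 is shared, and Ccnd1 a broad site and a separate one 26.4 kb away.

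Ccnd1, the gene of cyclin D1, which drives entry into S phase, had a site that was 1 wide peak in replicate 2 and a row of narrower ones in replicate 1. Joined, they spanned 4882 bp on chromosome 7 at 152124807 to 152129688, and 0.10% of all shared regions were at least as wide. Replicate 1 had 4 peaks in it, with folds of 3.48, 5.18, 6.98 and 5.63 and summits of 16, 22, 30 and 24 reads. Replicate 2 had 2 peaks, a first of 541 bp with a fold of 4.31 and 20 reads and a second of 4141 bp with a fold of 3.88 and 42 reads. The second was wider than 99.9% of the replicate 2 list or as wide. At least 4 replicate 1 peaks and 2 replicate 2 peaks were joined in 11 shared regions of the genome, 0.062% of them. The 4 replicate 1 peaks, each at most 1958 bp wide, ran from 152125259 to 152129574 with gaps between them. Their joining into 1 region rests on the 4141-bp peak of replicate 2. Without peaks at 2 times the control background or more, which leaves that peak out, the shared region was 1001 bp, at 152124807 to 152125807, and 48.5% of shared regions were at least as wide.

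The wide replicate 2 peak at Ccnd1 stood on high control coverage at its summit, the only position of the peak where the background was solved. Its local control background was 2.75 times the genome-wide value, a level reached by 0.35% of the peaks of its list, so its 42 reads gave the lowest fold of the 3 Ccnd1 peaks of replicate 2 although they were the most. The best replicate 1 peak of the region was at the genome-wide background. Its summit lay 1354 bp from the replicate 2 summit, a distance that 99.7% of shared regions did not exceed. The replicate 1 peak of the region with the closest summit, 312 bp away with 24 reads, was also at the genome-wide background. The folds of the region, 6.98 and 3.88, belong to different positions and backgrounds and were not averaged. The part of the control in the difference was not tested.

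The other Ccnd1 site was compact and lay near the window's edge, 26.4 kb from the best replicate 1 summit. It spanned 1111 bp at 152100567 to 152101677, with folds of 5.64 in replicate 1 (3.91 to 7.89) and 8.34 in replicate 2 (6.04 to 11.3). The summit held 32 reads in replicate 1 and 40 in replicate 2, at positions 190 bp apart. The control background was 1.41 times the genome-wide value in replicate 1 and at that value, its lowest possible, in replicate 2. This site was the best Ccnd1 peak of replicate 2, in the top 14.9% of the list, whereas in replicate 1, where it was in the top 24.9%, the broad site ranked higher with 20.3%. Replicate 1 alone had a weak peak at 152123345 to 152123952, with a fold of 3.604 and 15 reads, 854 bp from a replicate 2 peak. Between this weak peak and the compact site, 21.7 kb held no peak in either list.

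Peaks covered 11.6% of the Ccnd1 window in replicate 1 and 12.9% in replicate 2. With all deposited peaks this was more than at the other loci, and 0.21% and 0.56% of the 45-kb windows of the genome were covered as much. In replicate 2 this rests on the wide peak: without peaks at 2 times the control background or more, 3.67% of the window was covered, below the 4.15% to 7.10% of the other loci in that replicate, while replicate 1 stayed at 11.6%. The Ctnnb1 window was covered to 3.31% and 4.61%, the Axin2 window to 2.40% and 4.15%, and the Myc window to 2.74% and 7.10%. In replicate 1, 0.59% of the 45-kb windows held at least 6 peaks, the Ccnd1 count. In replicate 2, 6.74% held at least its count of 3, of which 1 was the wide peak that overlapped several replicate 1 peaks.

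Member peaks of replicate 1 mostly had a partner in the other list, those of replicate 2 less so. In replicate 1, 11 of 13 peaks overlapped a replicate 2 peak, 84.6%, beside 89.1% of the whole list. In replicate 2, 8 of 15 did, 53.3%, beside 60.9% of the whole list. Both shares are near those of the lists. The 7 members without a replicate 1 partner had a median of 20 reads, the same as all 12134 such peaks of the list, and a median fold of 4.31 against 3.91. The 2 of replicate 1 without a partner had 14 and 15 reads.

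By the best peak of each window, the order was Ctnnb1, Axin2, Ccnd1 and Myc in replicate 1 and Ctnnb1, Ccnd1, Axin2 and Myc in replicate 2. Axin2 and Ccnd1 were neighbours whose order changed: 35 and 30 reads in replicate 1, and 38 and 40 in replicate 2 at the best peaks, all with overlapping Poisson intervals. The best Ccnd1 peak was in the broad site in replicate 1 and at the compact site in replicate 2. The compact site had 32 reads in replicate 1. The intervals of Ccnd1 and Myc also overlapped, at 20.2 to 42.8 and 15.4 to 35.7 in replicate 1 and 28.6 to 54.5 and 19.4 to 41.6 in replicate 2. The Ctnnb1 interval stood above that of Myc in both replicates. It overlapped that of Axin2 by a little in both, and that of Ccnd1 in replicate 2 but not in replicate 1. None of the 4 loci reached the top 1% of either list.

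**Figure D3:**
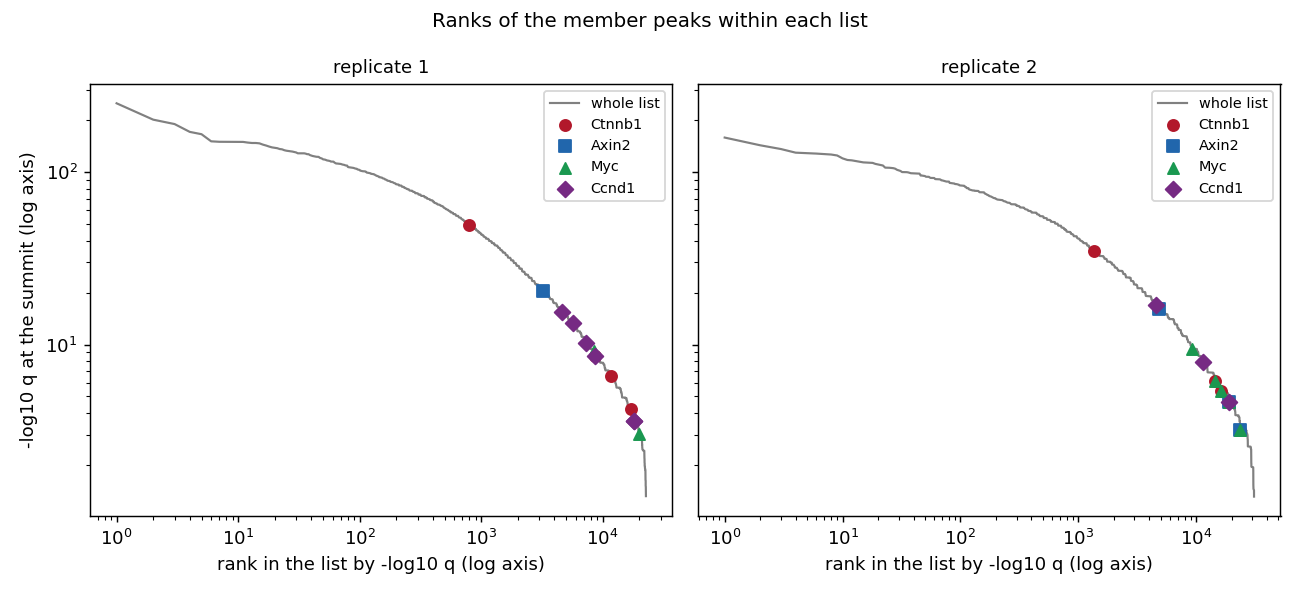
The −log10 q of every peak (y axis, log scale) against its rank (x axis, log scale) in each list, with the member peaks marked by locus; members of equal value coincide. The best Ctnnb1 peak stands apart from the other members, at ranks 796 and 1366, and the remaining members lie at ranks from 3209 in replicate 1 and from 4605 in replicate 2 downwards.

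The read numbers of the replicates had overlapping counting intervals at each of the 6 shared regions. Divided by ChIP depth, the summit reads of replicate 2 over replicate 1 had a ratio of 0.98 at the main Ctnnb1 region (95% exact interval 0.68 to 1.42), 1.06 at the second (0.56 to 2.01) and 1.05 at Axin2 (0.64 to 1.71). It was 1.17 at Myc (0.66 to 2.09), and 1.21 (0.74 to 1.98) and 1.35 (0.83 to 2.24) at the compact and the broad Ccnd1 region. Replicate 2 was the higher at 5 of the 6 regions, and at 88.4% of all shared regions, where the median ratio was 1.25. No member region passed the exact binomial test, two-sided, after Benjamini-Hochberg adjustment over all 17867 shared regions, with adjusted p-values of 0.76 at the broad Ccnd1 region to 1.0 at the main Ctnnb1 region, and none had an unadjusted p under 0.05. Of all regions 1, or 0.0056%, passed and 1113 had an unadjusted p under 0.05. The test compares 2 libraries, the intervals allow ratios up to 1.42 or more, and reads over summits at different positions are not counts of 1 site.

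**Figure D4:**
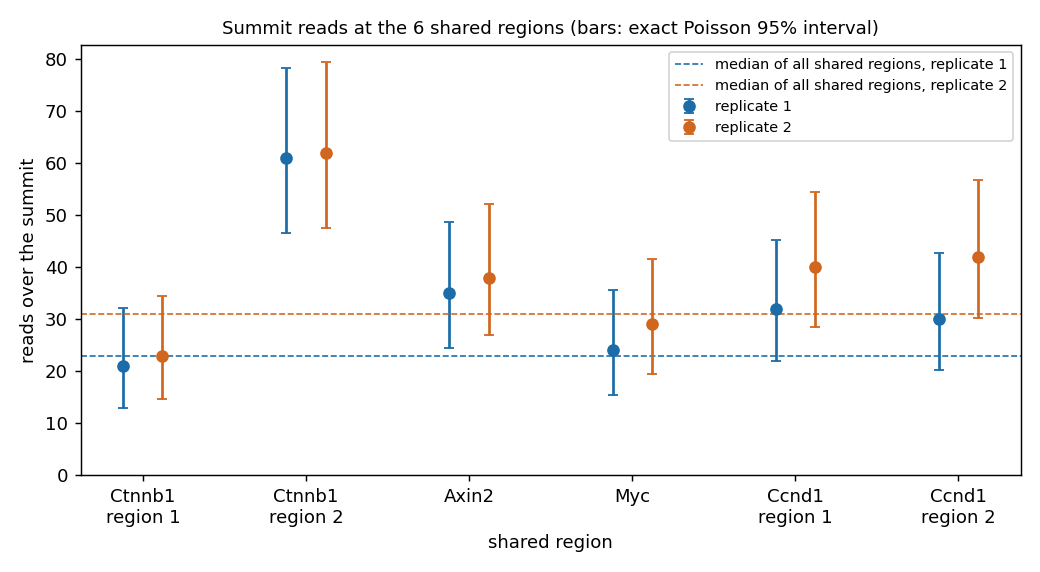
Reads over the summit (y axis) at each of the 6 shared regions (x axis), with exact Poisson 95% intervals; dashed lines are the medians of all shared regions, 23 in replicate 1 and 31 in replicate 2. The main Ctnnb1 region, at 61 and 62 reads, is above both lines with its whole intervals, and the intervals of the replicates overlap at every region.

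The shared member regions had a median fold of 6.31 in replicate 1 and 7.03 in replicate 2, beside 4.96 and 5.96 over all shared regions. Their median width was 1268 bp against 974 bp, and a single peak of each replicate made up 4 of the 6, 66.7% against 84.3%. These are descriptions of 6 regions and nothing particular to the pathway is read from them. The peaks are named here by the window they lie in and not by a gene they act on. By the order of protein-coding genes in the GRCm38.p6 table, Ctnnb1 lies between Rpl14 and Ulk4, Axin2 between Cep112 and Rgs9, Myc between A1bg and Gsdmc, and Ccnd1 between LTO1 and Tpcn2. Whether a peak lies at a start site of a member or in a neighbour was not determined, since no annotation of mm9 was used here.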

How the data were processed

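CHD8 was measured by ChIP-seq in 2 samples, beside 2 inputs whose reads are seen here only as the caller's control. Titles gave the replicate numbers. Libraries were tagmented on beads, per the labels' protocols. Bowtie2 2.1.0, MACS2 2.1.1 and mm9 are named per the submitters' processing notes; the pairing of controls with samples and the filters are not stated in these sources. Each deposited list, called per sample, has 10 columns: the fold ratio, the −log10 p and −log10 q values and the score, which is 10 times the −log10 q cut to a whole number, are the authors' values.

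Windows came from a fixed rule in mm9. Whole reads over a summit were solved from fold, (s × n + 1)/(background + 1), and the Poisson tail p, where n is the read number and s scales the ChIP library to the control (1 in replicate 1 and 0.714 in replicate 2). Every peak had a solution whose log10 p fitted within 0.002, and 78 replicate 2 peaks, none a member, had more than 1 solution. The solving was tested on simulated lists made with the same formulas, so that test covers the inversion and not whether the caller used these formulas. Connected overlapping peaks of both lists formed a shared region, given by its peak of highest −log10 q in each list. Genome windows ran from the first base to the last peak of each chromosome. Named are all peaks in the 4 windows, the nearest peaks outside and the 3 shared regions on either side of the best member region in rank. The members and lists were chosen with earlier results of these data known. A list of other Wnt pathway genes needed an mm9 annotation and was not analysed here. Alternatives were the higher-score 50% of each list, equal list lengths, 50% reciprocal overlap, wider windows, shifted tiles, autosomes, single replicates, ranking by fold, leaving out peaks at 2 times the control background, and another read scaling. Python 3.11.15, numpy 2.4.6, pandas 2.3.3, scipy 1.17.1 and matplotlib 3.10.9 were used.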

Additional observations from a re-analysis of the deposited data

How the results depend on the processing

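Of 122 alternative values over 35 results, 103 kept within the limits set for a like value and 19 moved. The 103 include values that could not change. Leaving out peaks at 2 times the control background or more removed only the wide Ccnd1 peak of replicate 2 from the members. The other peak counts and covered shares under that setting were therefore the same by construction. No direction was called, so none could reverse. The limits were wide: 4 peaks against 6 at Ccnd1 in replicate 1, with the higher-score 50% of each list, counted as like. So did a share of 16.2% against 23.6% of the 60-kb windows with a shared region. With the higher-score 50% of each list, peaks in the Ctnnb1 window went from 4 to 2 in both replicates, at Axin2 in replicate 2 from 3 to 1, and at Myc from 2 to 1 in replicate 1 and from 5 to 2 in replicate 2. The shared regions of Ctnnb1 went from 2 to 1, the weak second site being lost. Within these halved lists the rank of the best peak, as a mean of the replicates, was 7.91% at Ctnnb1, 29.9% at Axin2, 67.2% at Myc and 35.1% at Ccnd1, against 3.96%, 14.9%, 33.6% and 17.6%, which halving a list doubles by construction. With the replicate 2 list trimmed to the length of replicate 1 it was 4.76% at Ctnnb1, 17.8% at Axin2 and 39.1% at Myc. The ranks of these peaks did not change, so this shift too follows by construction from the shorter replicate 2 list. At 50% reciprocal overlap the Ccnd1 window kept 1 shared region of 2. In windows made 2 times as long around the same centre, Axin2 had 2 peaks in replicate 1 and Ccnd1 5 in replicate 2. With a single replicate, sites over the 4 windows can only be counted as peaks, 13 to 15 against 6 shared regions.

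Scaled to the median ratio of all shared regions, the read ratios were 0.78 to 1.08 and below 1 at 5 of 6 regions, against above 1 at 5 of 6 by depth; no direction was called. Taking the pair of peaks with the closest summits, an alternative chosen after seeing the data, gave 1.69 at the broad Ccnd1 region, with an adjusted p of 0.71 in the exact binomial test, and summits 312 bp apart. Without peaks at 2 times the control background, also tried after seeing the data, the covered share of the Ccnd1 window in replicate 2 was 3.67% against 12.9%. Tiling only from the first to the last peak was also added later. No paired analysis was possible because the comparison involves 1 group only, and the inputs have no peak lists. Summits of 14 to 62 reads limit what can be told apart: presence in 1 list alone at these weak sites does not show a difference between the replicates.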

Other observations

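Outside the windows, the nearest peaks were far from Ctnnb1 in both lists. Below its window the next peak, at 120668380 to 120669189 in replicate 1, was 150.8 kb away, with a fold of 4.61. Above it the next, at 121186045 to 121187252, was 306.0 kb away, with folds of 14.8 in replicate 1 and 17.4 in replicate 2, higher than the best Ctnnb1 peak of each list. Above the Axin2 window the next peaks were 325.6 kb away in replicate 1 and 281.0 kb in replicate 2, and below it 19.1 kb and 273.7 kb. Replicate 2 had peaks just outside the Myc window, 2.26 kb above it with a fold of 4.51, and outside the Ccnd1 window, 4.88 kb below it with a fold of 3.20. The nearest replicate 1 peaks on those sides were 513.8 kb and 49.9 kb away. A pair of overlapping peaks lay 129.6 kb below the Myc window in replicate 1 and 129.7 kb in replicate 2, with folds of 5.41 and 6.73. Above the Ccnd1 window the next peaks were 71.3 kb away in replicate 1 and 71.4 kb in replicate 2, with folds of 5.86 and 7.57.

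The main Ctnnb1 region held place 928 of the 17867 shared regions, ordered by the worse of the rank percentiles in the lists, together with 6 others of equal value, since 7 regions share that place. Its neighbours in that order lay on chromosome 16 at 62757966 to 62758583, on chromosome 9 at 57384858 to 57385987, on chromosome 4 at 154459512 to 154461216 and on chromosome 11 at 115264360 to 115265746. A further pair was on chromosome 2, at 94246037 to 94248323 and at 130249336 to 130250897. Their summits had 58 to 66 reads in replicate 1 and 62 to 86 in replicate 2, lay 10 to 246 bp apart, and each of the 6 regions was a single peak in each list. Unlike these neighbours, the Ctnnb1 region was drawn in several pieces, 3 in replicate 1 and 2 in replicate 2, with summits 3 bp apart. Regions of equal value were taken in chromosome order.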
